A study of Mus musculus with 6 samples.

Results

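The genes described are the protein kinases of the lower tiers of the p38 and JNK stress pathways, the MAP kinases themselves and the MAP kinase kinases (MAP2K) that switch them on, in mouse liver 1 h after interleukin-6 (IL-6). They were picked by name as 10 genes, Map2k3, Map2k4, Map2k6 and Map2k7 of the MAP2K tier, Mapk11, Mapk12, Mapk13 and Mapk14 of the p38 kinases, and Mapk8 and Mapk9 of the JNK kinases. The set was picked because Map2k6 was lower after IL-6 in these arrays. The differences between IL-6 and saline are therefore given for its members as a description, with no p-value, and nothing is supported with them. Each of 9 members had 1 probe set that the platform annotation ties to exactly 1 gene symbol, out of 19938 genes measured that way, and Map2k7 was not analysed here.

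The data were 6 single-colour Affymetrix arrays of whole liver, 3 from mice given 100 ng of IL-6 per animal and 3 from mice given saline, both by intraperitoneal injection. All animals were C57BL6 males aged 10 weeks that had fasted for 16 h before the injection, so the saline livers are fasted livers too. Values are log2 expression per probe set, and a difference of 1 is a 2-fold change. The labels list separate samples but do not say whether every array had a mouse of its own, so the errors and p-values reflect the spread among samples, which may be technical.

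Both pathways are relays of 3 kinases. A MAP3K phosphorylates a MAP2K, which phosphorylates a p38 or JNK kinase, which in turn acts on transcription factors and further kinases. MKK6 and MKK3, the products of Map2k6 and Map2k3, are selective for p38, MKK7 is selective for JNK, and MKK4, the product of Map2k4, acts mainly on JNK and can act on p38. In the liver, p38 is known for its part in fasting glucose production and in inflammation, and JNK for its part in stress-induced insulin resistance and hepatocyte death. The relay runs on phosphorylation, which transcript arrays do not measure.

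Array medians lay between 5.42 and 5.48 over all 35556 probe sets, and arrays of the same group correlated at 0.989 to 0.991. Saline replicate 2 and IL-6 replicate 3 stood apart from the other 4 arrays on principal component 2, and Map2k6 is therefore also given without them. The 10 hepatocyte markers measured all lay at or above the 98.5th percentile of genes. The level of a transcript in whole liver cannot tell fewer cells of a type apart from less RNA per cell. Of 70 markers of 8 cell types the limma fit called 1, or 1.43% beside 0.421% of all genes, the neutrophil gene S100a8 (0.65 ± 0.09, limma adjusted p = 0.0211). Its means of 4.24 after IL-6 and 3.60 after saline lie below the 25th percentile of genes (4.59). Of the 12 neutrophil markers 6 had positive and 6 negative differences, with a median of 0.008, and their summed level, the log2 of the summed linear values, overlapped at 7.81 to 8.11 in the IL-6 arrays and 7.93 to 8.02 in the saline arrays. Of 11 Kupffer cell markers 10 had positive and 1 had a negative difference, with a median of 0.09 beside 0.003 over all genes. None of the 11 was called, and their summed level overlapped, at 10.07 to 10.33 in the IL-6 arrays and 9.96 to 10.14 in the saline arrays. The summed level of 5 cholangiocyte markers was 8.17 to 8.28 in the IL-6 arrays against 7.96 to 8.02 in the saline arrays. Of these 5, Sox9 alone had groups that did not overlap (0.41 ± 0.11, limma adjusted p = 0.326), Krt19, Krt7 and Epcam had differences of 0.13, 0.08 and 0.03, and Cftr had -0.09. The part of these markers in any result below was not tested.

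Map2k6 stood alone in the set by the size of its change. Its log2 level was 5.93, 5.85 and 5.89 in the IL-6 livers, against 6.72, 6.98 and 6.67 in the saline livers. The 3 IL-6 values lay close together, the saline values were more spread, and a gap of 0.74 separated the lowest saline array from the highest IL-6 array. The means were 5.89 ± 0.04 after IL-6 and 6.79 ± 0.17 after saline (SD, n = 3 each), a log2 difference of -0.90 ± 0.09 (standard error from the limma fit), so that IL-6 livers had 0.535 times the saline level.

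By size, the difference of Map2k6 was the 7th largest fall among all 19938 genes, and 0.271% of genes differed by at least as much in either direction. The limma fit called 7 genes lower at an adjusted p under 0.05, or 0.0351% of all genes, and Map2k6 was among them. The set was picked because Map2k6 was lower in this same comparison, so its rank and its call support nothing. Saline replicate 2 held the highest value, and without that array the difference was -0.81. Without that array and IL-6 replicate 3, the pair that stood apart, it was -0.80. When all 35556 probe sets were tested together, no member was among the genes called.

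**Figure D1:**
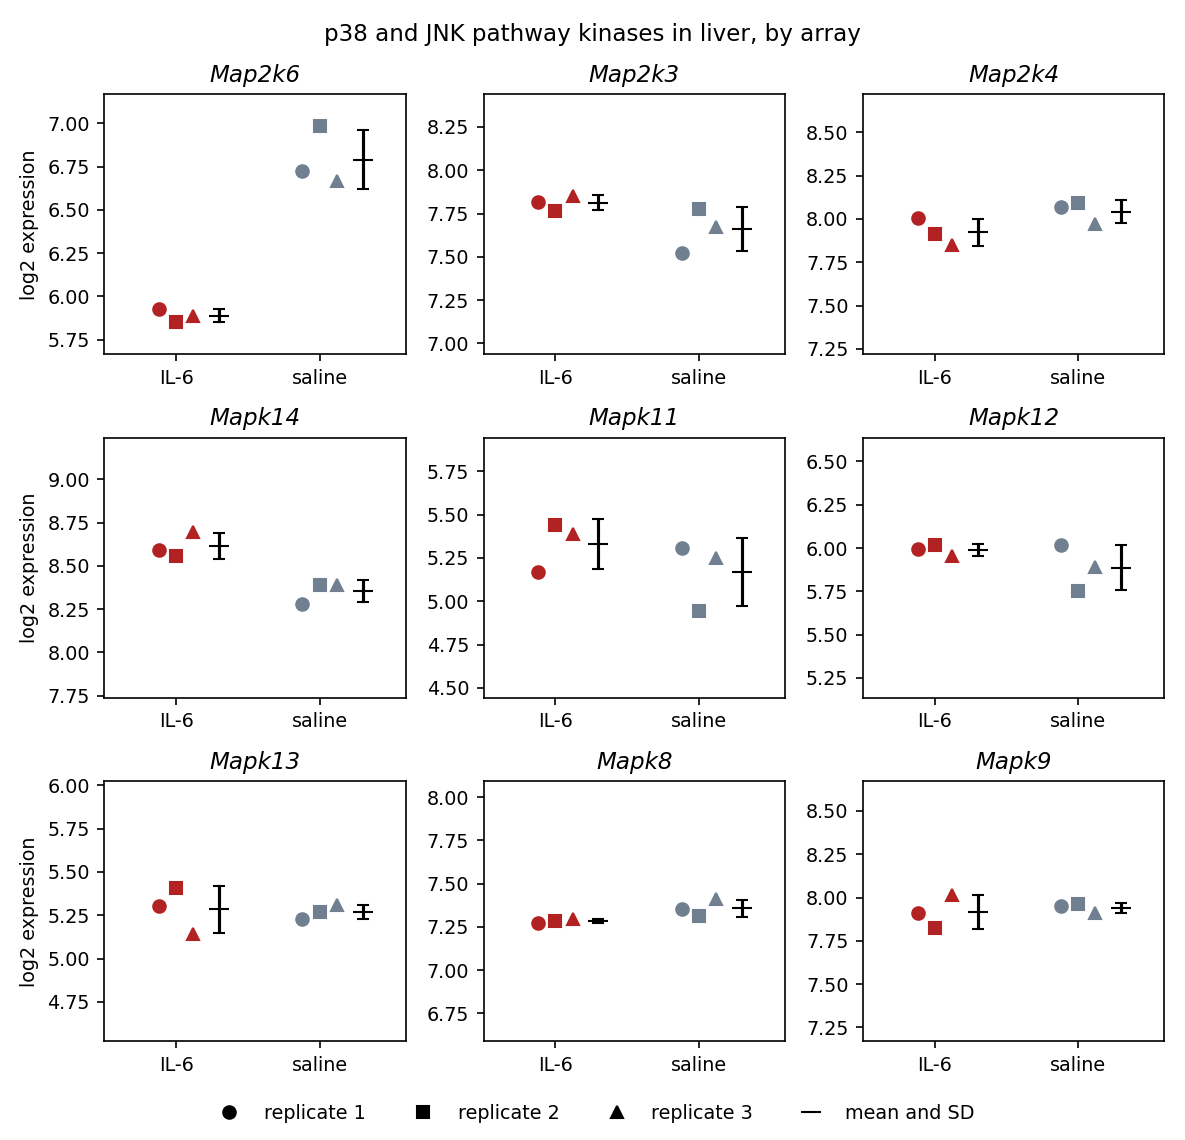
Log2 expression of the 9 measured kinases in each array, IL-6 on the left and saline on the right of each panel, with symbols for replicates and bars for the mean and SD of 3 arrays. Every panel spans 1.5 log2 units, so distances can be compared between panels: the IL-6 and saline arrays are far apart for Map2k6, with means of 5.89 and 6.79, and close together for the other 8.

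Map2k3 encodes MKK3, the closest relative of MKK6 and the other p38-selective MAP2K. Its level was 7.82, 7.76 and 7.85 in the IL-6 livers, against 7.52, 7.78 and 7.67 in the saline livers. The groups overlapped, since IL-6 replicate 2 lay below saline replicate 2. The difference was 0.15 ± 0.08, opposite in sign to that of Map2k6, and ran from 0.09 to 0.21 when each array was left out in turn. Taken within each array relative to the saline mean, Map2k6 minus Map2k3 was -1.02, -1.04 and -1.10 in the IL-6 arrays, against 0.07, 0.07 and -0.14 in the saline arrays. This contrast carries the value of Map2k6 on which the set was picked, and is given as a description.

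Map2k4 was slightly lower on average. It had levels of 8.005, 7.91 and 7.85 in the IL-6 livers, against 8.07, 8.09 and 7.97 in the saline livers, a difference of -0.12 ± 0.08. IL-6 replicate 1 lay above saline replicate 3, so the groups overlapped. The gap between Map2k6 and Map2k4 in their change was -0.78 over the 3 IL-6 arrays.

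Among the p38 kinases, Mapk14, which encodes the widely expressed p38 alpha, differed most. It had levels of 8.59, 8.56 and 8.70 in the IL-6 livers, against 8.28, 8.39 and 8.39 in the saline livers. All IL-6 arrays were above all saline arrays, and the difference of 0.26 ± 0.08 is a 1.20-fold level. Leaving out each array in turn gave 0.22 to 0.29. By group means, Mapk14 was somewhat higher after IL-6 while Map2k6 was lower, and a link between these genes was not tested.

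Mapk11, which encodes p38 beta, had levels of 5.17, 5.44 and 5.39 in the IL-6 livers, against 5.31, 4.95 and 5.25 in the saline livers. The low value of saline replicate 2 decided much of its difference of 0.16 ± 0.11, which was 0.05 without that array. Mapk12, which encodes p38 gamma, known best from muscle, had a difference of 0.10 ± 0.08, with 5.95 to 6.02 in the IL-6 arrays and 5.75 to 6.02 in the saline arrays. It too was lowest in saline replicate 2, and without that array the difference was 0.04. Mapk13, which encodes p38 delta, had a difference of 0.01 ± 0.09, with 5.14 to 5.41 in the IL-6 arrays and 5.23 to 5.31 in the saline arrays. For these 3 genes the groups overlapped, and differences of this size cannot be told from the spread between arrays. The sign for Mapk13 turned without IL-6 replicate 2 (-0.05) or without saline replicate 1 (-0.006).

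The JNK kinases differed little. Mapk8, which encodes JNK1, had levels of 7.27, 7.29 and 7.29 in the IL-6 livers, against 7.35, 7.31 and 7.41 in the saline livers. The groups did not overlap, but the gap between them was 0.02 and the difference -0.07 ± 0.07. Mapk9, which encodes JNK2, had 7.91, 7.82 and 8.02 in the IL-6 livers, against 7.95, 7.96 and 7.91 in the saline livers, a difference of -0.02 ± 0.08 with overlapping groups. Its sign turned without IL-6 replicate 2 (0.02). Mapk10, the gene of JNK3, is known mainly from the nervous system and stands outside the set. Its 2 probe sets averaged 4.17 and 2.92 in the IL-6 livers, against 4.27 and 2.97 in the saline livers, below the 25th percentile of genes (4.59), a range in which background can mask a difference.

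**Figure D2:**
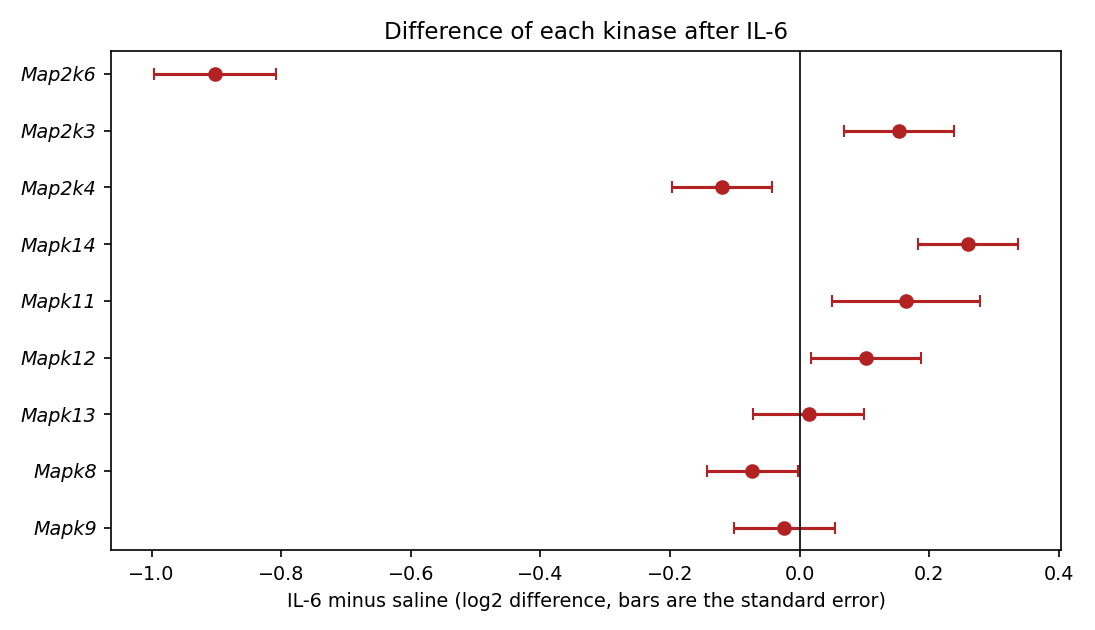
Log2 difference, IL-6 minus saline, of each of the 9 measured kinases, with bars for the standard error of the limma fit over 3 arrays per group. Map2k6 lies at -0.90, and the other 8 kinases lie between -0.12 and 0.26.

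Across the 9 measured members, 5 had positive and 4 had negative differences, and the median was 0.01, beside 0.003 over all genes. Apart from Map2k6 the differences ran from -0.12 to 0.26, with a median size of 0.11 beside 0.07 over all genes. The 4 p38 kinases all had positive and the 2 JNK kinases both had negative differences in the comparison of all 6 arrays. The groups did not overlap for 3 of the 9, Map2k6 and Mapk8 lower and Mapk14 higher, which is 33.3% beside 11.6% of all genes (6.15% higher and 5.48% lower), and nothing is read from that share because the set was picked on this comparison. No member fell below the 25th percentile of genes, the lowest single value being 4.95.

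Promoter sequence was taken for the members from RefSeq (build GRCm38.p6), as windows from 250 bases before to 50 bases after each annotated start, which gave 16 windows for the 10 genes. Shown are the 250 bases before the first of 3 starts of Map2k6, the member that was lower. For comparison stand the same stretch at the second start of Mapk14, the member with the largest positive difference, and a short stretch of Map2k4. These 2 genes had 2 windows each. The window shown was picked because it held the pattern marked here, and the other window of each gene did not hold it. Capitals mark matches to TTCNNNGAA, a pattern bound by STAT factors, the transcription factors that IL-6 activates. The Map2k6 stretch is chr11:110398852-110399101 (plus strand), the Mapk14 stretch chr17:28692318-28692567 (plus strand) and the Map2k4 stretch chr11:65788562-65788590 (minus strand), each written 5′ to 3′.
Map2k6: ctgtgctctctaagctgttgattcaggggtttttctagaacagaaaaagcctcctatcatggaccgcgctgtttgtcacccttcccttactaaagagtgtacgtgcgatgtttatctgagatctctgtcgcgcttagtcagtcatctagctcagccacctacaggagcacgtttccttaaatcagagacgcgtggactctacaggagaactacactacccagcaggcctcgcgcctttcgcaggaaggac
Mapk14: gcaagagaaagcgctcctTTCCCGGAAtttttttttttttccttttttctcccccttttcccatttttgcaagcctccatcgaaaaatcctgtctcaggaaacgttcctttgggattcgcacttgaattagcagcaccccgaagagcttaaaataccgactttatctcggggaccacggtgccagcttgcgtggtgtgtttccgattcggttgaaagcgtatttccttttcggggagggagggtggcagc
Map2k4: ggttctgaggTTCAGAGAAgggagttcta

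The pattern TTCNNNGAA, which reads the same on both strands, was found in 2 of the 16 windows, and in 8.30% of all 32851 promoter windows of the table. The match in Mapk14 was TTCCCGGAA, 232 bases before the start of the window shown. The match in Map2k4 was TTCAGAGAA, 221 bases before the start to which its stretch belongs. None of the 3 windows of Map2k6 held these letters. The AP-1 pattern TGACTCA, searched on both strands, is in 5.20% of all windows, and the CRE pattern TGACGTCA, bound by ATF factors, is in 1.79%. Neither was in a window of a member, and no matches overlapped. These matches describe letters in the windows and do not show that a factor binds there.

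The 5 genes whose profile over the 6 arrays was most like that of Map2k6 were found by the root-mean-square difference between log2 values centred on each gene's mean. Closest was Spata2l (0.119), followed by Ppp1r3c (0.134), which encodes a subunit that targets protein phosphatase 1 to glycogen. Next were 2900005J15Rik (0.151), Tsc22d3 (0.181), a glucocorticoid-induced gene also called GILZ, and Ccnf (0.203), which encodes cyclin F. Among the other members of the set the closest was Map2k4, with a root-mean-square difference of 0.400. The centred values were not scaled, so a gene without a fall of similar size cannot lie near Map2k6. Nothing is therefore read from the distance of the other members.

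Ppp1r3c had levels of 7.17, 6.83 and 6.90 in the IL-6 livers, against 7.73, 8.25 and 7.58 in the saline livers, a difference of -0.89 ± 0.16. Tsc22d3 had levels of 7.43, 7.18 and 7.44 in the IL-6 livers, against 7.96, 8.68 and 7.85 in the saline livers, a difference of -0.81 ± 0.19. Like Map2k6, each of the 5 was highest in saline replicate 2, and none had overlapping groups. The differences of Spata2l, 2900005J15Rik and Ccnf were -0.71 ± 0.11, -0.66 ± 0.08 and -0.50 ± 0.09. Since the genes were sought for their likeness, these values carry no test.

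**Figure D3:**
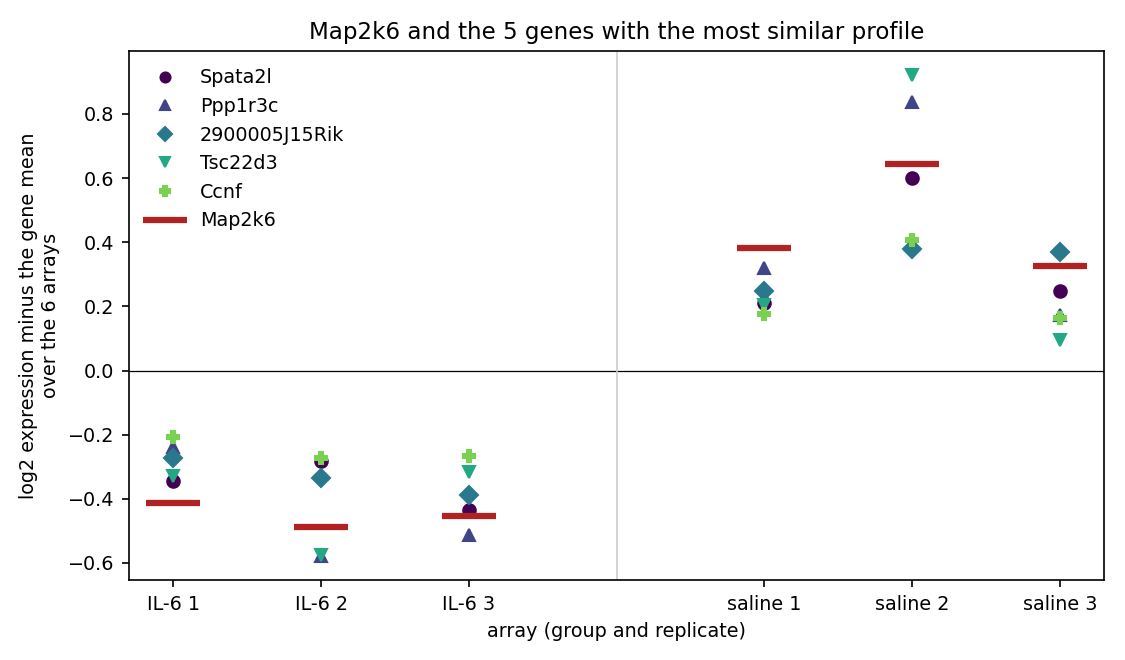
Log2 expression of Map2k6 (red bars) and the 5 genes with the most similar profile in each array, after subtraction of each gene's mean over the 6 arrays, with IL-6 arrays on the left and saline arrays on the right. All 6 genes are below their mean in the IL-6 arrays and above it in the saline arrays, and all are highest in saline replicate 2.

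The rest of the cascade was examined with 6 lists of pathway genes, 98 of 107 of them measured, with p-values adjusted over all 19938 genes. In limma 4 genes rose, Gadd45a, Gadd45g, Jun and Zfp36, and 0 fell (adjusted p under 0.05). That is 4.08% of the pathway genes, beside 0.421% of all genes called in either direction and 0.386% called higher. All 4 were known as called genes before the lists were written, so this share is a description only. At an unadjusted limma p under 0.05, 754 genes were higher and 565 lower in the whole table. The groups did not overlap for 15 pathway genes, 12 higher and 3 lower, or 15.3% beside 11.6% of all genes.

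Upstream of the members, the list of MAP3Ks, their binding partners and adaptors held 31 measured genes, of which 2 rose and 29 did not pass. Gadd45a and Gadd45g, whose products bind and activate the MAP3K MTK1 (Map3k4) in human cells, rose by 2.64 ± 0.09 and 2.37 ± 0.18 (limma adjusted p = 1.45e-06 and 0.000458). Map3k1, which acts on the MAP2Ks of the JNK arm, had the next smallest p, with a difference of 0.26 ± 0.10 and overlapping groups (limma adjusted p = 0.686). Gadd45b, the other Gadd45 gene of the list, was not called, with 0.14 ± 0.24 and overlapping groups (limma adjusted p = 0.963). The list's median was 0.05. Scaffold proteins, which hold the kinases of a relay together, had differences from -0.03 to 0.07 over 11 genes, with none called. Flna, Nrk and Ccm2, the 3 scaffold genes with the smallest p, had 0.07 ± 0.07, 0.06 ± 0.08 and 0.06 ± 0.07 (limma adjusted p = 0.941, 0.955 and 0.957).

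Downstream, 6 kinases that p38 activates were measured and none was called. Mknk2, which encodes a kinase of the translation factor eIF4E, had levels of 8.50, 8.47 and 8.65 in the IL-6 livers, against 8.75, 8.995 and 8.65 in the saline livers, a difference of -0.26 ± 0.10 (limma adjusted p = 0.686). IL-6 replicate 3 lay just above saline replicate 3, so the groups overlapped. Mapkapk5 and Mapkapk2, which encodes MK2, had 0.09 ± 0.07 and -0.07 ± 0.09 (limma adjusted p = 0.920 and 0.956).

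Of 19 transcription factors and other substrates of p38 and JNK, 2 rose and 17 did not pass. Jun, the factor after which JNK is named, had levels of 7.97, 8.22 and 8.14 in the IL-6 livers, against 6.63, 7.09 and 6.65 in the saline livers, and rose by 1.32 ± 0.13 (limma adjusted p = 0.00231). Zfp36 encodes the mRNA decay factor tristetraprolin, which MK2 phosphorylates. Its levels were 9.73, 9.82 and 9.96 in the IL-6 livers, against 8.28, 8.47 and 8.44 in the saline livers, and it rose by 1.43 ± 0.09 (limma adjusted p = 0.000115). Both were more than 2-fold higher with wide gaps between the groups, while the transcripts of the JNK kinases upstream of Jun differed by less than 0.1. Ddit3, a stress factor that p38 phosphorylates, had a difference of 0.33 ± 0.10 and overlapping groups (limma adjusted p = 0.504).

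None of the 16 genes measured in the list of p38 and JNK phosphatases passed the test. The list was drawn up by name, and not every product in it acts only to switch p38 or JNK off. Their differences were negative for 13 of 16 (81.3%, beside 48.9% of all genes), with a median of -0.07 beside 0.003 over all genes and a median size of 0.08. Dusp1, a nuclear phosphatase of p38 and JNK, had levels of 7.62, 7.46 and 7.59 in the IL-6 livers, against 8.04, 8.28 and 7.72 in the saline livers. The groups did not overlap, and saline replicate 2 was again the highest. The difference of -0.46 ± 0.13 missed the threshold (limma adjusted p = 0.415, with a range of 0.0894 to 0.751 across alternatives). Ppm1l and Ppm1b had 0.18 ± 0.10 and -0.16 ± 0.10 (limma adjusted p = 0.854 and 0.884).

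The ERK arm, the growth factor branch of the same kinase family, and other MAP kinases held 15 measured genes with none called, differences from -0.10 to 0.30 and a median of 0.002. Nras, a small GTPase upstream of the ERK relay, had levels of 7.20, 7.36 and 7.31 in the IL-6 livers, against 7.00, 6.85 and 7.12 in the saline livers. The groups did not overlap, and the difference was 0.30 ± 0.09 (limma adjusted p = 0.465). Mapk10 and Mapk4 had -0.10 ± 0.10 and 0.09 ± 0.09 (limma adjusted p = 0.933 each). No gene of this list was lower by as much as Map2k6. Few genes could be, since the fall of Map2k6 ranked 7th among all 19938 genes. The lowest difference in the list was that of Mapk10, which is a JNK gene and not of the ERK arm. Its level lay at the 19th percentile of genes, where background can mask a difference.

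**Figure D4:**
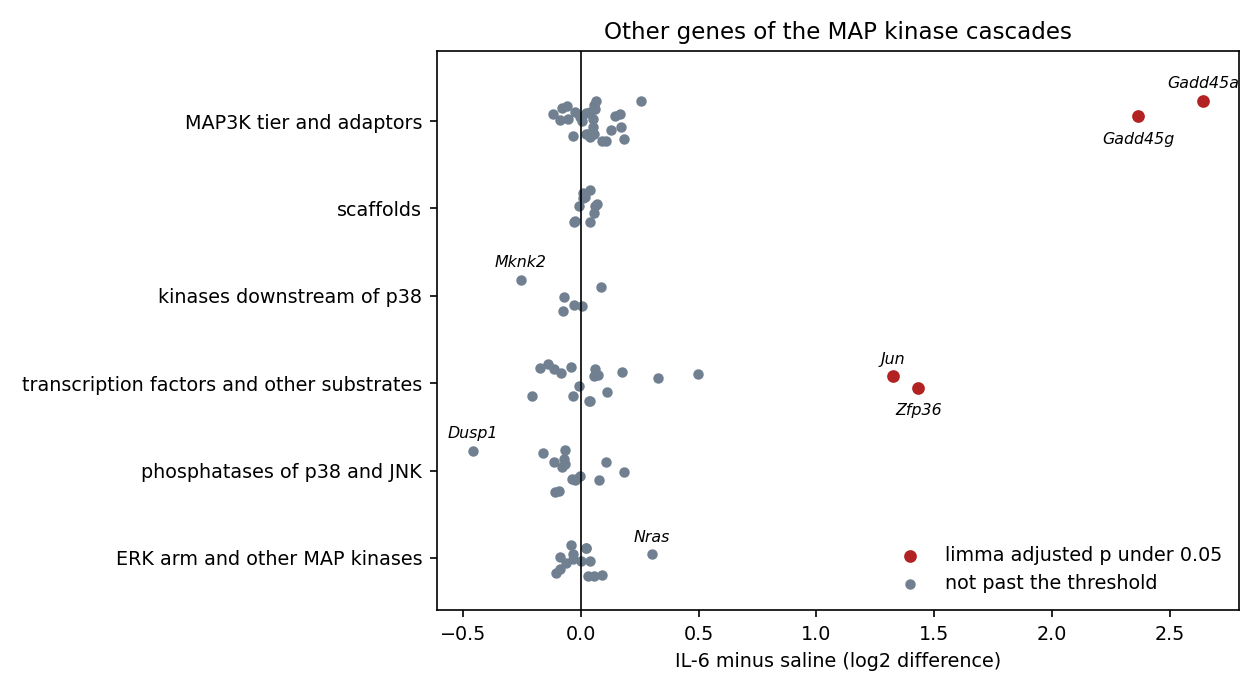
Log2 difference, IL-6 minus saline, of each measured gene in 6 lists of pathway genes, 1 point per gene, spread vertically only for visibility. Red points are the 4 genes with a limma adjusted p under 0.05, between 1.32 and 2.64, and grey points are the genes that did not pass, among them Dusp1 at -0.46, Mknk2 at -0.26 and Nras at 0.30.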

How the data were processed

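The authors deposited log2 values for each probe set, which came from RMA according to the labels (per the submitters' processing notes). Its version and settings and the genome build were not given in the sources used here. RMA quantile-normalizes arrays, which can remove a shift common to most genes and compress large changes. Of 35556 probe sets, 21789 had exactly 1 gene symbol, and for 999 genes with several the probe set of highest mean was kept. The comparison of IL-6 and saline used limma 3.58.1 in R 4.3.3 (lmFit, eBayes, two-sided). Benjamini-Hochberg adjustment ran over all 19938 genes, with a threshold of 0.05. Standard errors are limma's, with a median of 0.089 over genes. Precision is limited by the number of arrays, and an exact permutation test of 3 against 3 cannot go below 0.1.

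The members, the pathway lists and the markers were chosen with earlier results of these data known. List symbols without a probe set of 1 symbol were not analysed here. Named are all members, Mapk10, Gadd45b, in each list the called genes or else the smallest p values up to 3 genes, and the 5 profiles most like Map2k6. Alternatives were other scalings, filters on dim genes, probe set rules, variance priors, array weights, a replicate block and leaving out arrays. Figures were drawn with matplotlib 3.10.9.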

Additional observations from a re-analysis of the deposited data

How the results depend on the processing

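The difference of Map2k6 was negative under all 18 alternatives, from -0.96 to -0.80. Mapk11 and Mapk13 had 17 alternatives, since they dropped out when genes below the 50th percentile were left out. Each other measured member also kept its sign throughout, except Mapk9 (17 of 18) and Mapk13 (15 of 17). The 4 called pathway genes kept their calls under all 18 alternatives except Jun, which missed the threshold when every probe set was tested (limma adjusted p = 0.0732). Over all genes, 77 were called higher and 7 lower. When every probe set was tested, 16 were higher and 1 lower. That setting adjusts for 35556 tests in place of 19938 and also refits the variance prior, which then has 2.56 degrees of freedom in place of 5.28, and the share of each in the lower counts was not tested. Leaving out each array gave 45 to 67 higher and 3 to 5 lower genes, and 4 higher pathway genes each time. Without saline replicate 2 and IL-6 replicate 3, a setting chosen after seeing the data because they stood apart on principal component 2, the fit gave 31 higher and 2 lower, with fewer samples. With the replicate number as a block, 59 genes were higher and 6 lower, and the difference of Map2k6 was again -0.90. Deviations of same-numbered arrays from their group means correlated at 0.08, -0.12 and -0.09, and IL-6 replicate 3 correlated best with saline replicate 2 (0.18). With 3 arrays per group, such values cannot tell whether the numbers pair the arrays.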
